A study of Mus musculus with 16 samples.

Results

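The genes described here, 7 of the 55604 listed, handle lipoproteins, the particles that carry cholesterol and triglyceride. They are the apolipoprotein genes Apoe, Apoc1, Apoc4 and Apoc2, the lipase gene Lpl, the transfer protein gene Pltp and the receptor gene Vldlr. They were chosen by name, for their function and, in the case of the 4 apolipoprotein genes, for their place side by side on mouse chromosome 7. The choice was made with earlier results of these data known. Their RNA was compared between Tim-4+ and Tim-4- TAMs (tumor-associated macrophages of the peritoneal cavity) in 4 numbered pairs, 793, 784, 783 and 779, to ask whether the subsets differ in transcription. Per the study's methods, the mice were C57BL/6 females, 6 to 8 weeks old when used. The methods describe tumor injection into wild-type mice, without giving the genotype of the sequenced mice separately. All the mice carried tumors of ID8, a mouse line of ovarian cancer cells injected into the peritoneal cavity. The macrophages were taken at 6 to 7 weeks, per the study's figure legend. Mice without tumors were not among the samples. Tim-4, a receptor for phosphatidylserine encoded by Timd4, was the surface protein used for the separation. Per the methods, a density gradient first took most tumor and dead cells out of the peritoneal wash. Tim-4+ cells were then pulled out with antibody-coated magnetic beads, and the Tim-4- cells were then taken from what remained by their F4/80, a macrophage surface protein, so both subsets are enrichments and not pure populations.

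Apolipoprotein E binds to lipoprotein receptors on cells and is made in quantity by macrophages as well as by the liver. The C apolipoproteins are small proteins that move between particles. Apolipoprotein C-II is the activator of lipoprotein lipase, and apolipoprotein C-I modulates particle uptake and several lipid enzymes. Lipoprotein lipase, the product of Lpl, splits triglyceride in particles, phospholipid transfer protein, the product of Pltp, moves phospholipid between them, and the VLDL receptor, the product of Vldlr, takes up particles that carry apolipoprotein E. In macrophages the transcription of the Apoe cluster and of Pltp is known to respond to LXR, a nuclear receptor for oxidized cholesterol.

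The 4 apolipoprotein genes lie on the minus strand within 27.6 kb of chromosome 7 (chr7:19671579-19699188, GRCm38, GENCODE M21 annotation). In the direction of transcription the order is Apoe (ENSMUSG00000002985.16, chr7:19696109-19699188), Apoc1 (ENSMUSG00000040564.14, chr7:19689481-19692660), Apoc4 (ENSMUSG00000074336.5, chr7:19678083-19681479) and Apoc2 (ENSMUSG00000002992.17, chr7:19671579-19677941). The other members are scattered, with Lpl (ENSMUSG00000015568.16) at chr8:68880491-68907448 on the plus strand, Pltp (ENSMUSG00000017754.13) at chr2:164839518-164857711 on the minus strand and Vldlr (ENSMUSG00000024924.14) at chr19:27216484-27254231 on the plus strand. All 7 are protein-coding.

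Coding sequences are shown because the values of Apoc1 and Apoc2 turn on them. Both are read in the 5' to 3' direction of the gene from the GENCODE M21 transcripts. The first is the coding sequence of Apoc1, 267 bases in the exons between chr7:19689576-19692468, which encodes 88 amino acids, and the capitals mark its start and stop codons. No base of the Apoc1 exons is shared with another annotated gene, so a read on this sequence had 1 gene to be counted for.
Apoc1 coding sequence: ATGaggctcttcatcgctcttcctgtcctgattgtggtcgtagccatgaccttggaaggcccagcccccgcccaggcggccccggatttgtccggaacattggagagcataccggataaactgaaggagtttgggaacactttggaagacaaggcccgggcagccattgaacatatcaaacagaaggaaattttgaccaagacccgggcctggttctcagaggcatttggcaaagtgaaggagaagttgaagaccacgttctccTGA
The second is the coding sequence of Apoc2, 294 bases in the exons between chr7:19671761-19673601, which encodes 97 amino acids. Capitals mark the bases that also belong to Gm44805 (ENSMUSG00000109350.1), an annotated readthrough gene on the same strand that joins Apoc4 to Apoc2, and all 294 bases are capitals.
Apoc2 coding sequence: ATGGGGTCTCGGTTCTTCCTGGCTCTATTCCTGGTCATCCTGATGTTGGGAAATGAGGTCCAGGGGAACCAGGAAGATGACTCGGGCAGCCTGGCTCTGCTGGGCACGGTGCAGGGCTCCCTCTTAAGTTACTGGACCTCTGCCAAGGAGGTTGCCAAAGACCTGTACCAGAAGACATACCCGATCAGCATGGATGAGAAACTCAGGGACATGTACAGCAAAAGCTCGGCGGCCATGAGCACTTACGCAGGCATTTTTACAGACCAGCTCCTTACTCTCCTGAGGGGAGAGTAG

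The promoters of Apoe and Apoc4 are shown because the levels of these genes moved together over the libraries. Each window holds 250 bases before the start and 50 after it on GRCm38.p6, from RefSeq, and 5 of the 7 members had such a window. Capitals mark 3 short motifs searched on both strands, the nuclear receptor half-site AGGTCA, the TATA box core TATAA and the GC box core GGGCGG. They occurred in 16.3%, 24.9% and 35.7% of all 32851 windows of the same length. The Apoc4 window, at chr7:19681411-19681710 on the minus strand, holds 1 half-site and 1 GC box core.
Apoc4 promoter: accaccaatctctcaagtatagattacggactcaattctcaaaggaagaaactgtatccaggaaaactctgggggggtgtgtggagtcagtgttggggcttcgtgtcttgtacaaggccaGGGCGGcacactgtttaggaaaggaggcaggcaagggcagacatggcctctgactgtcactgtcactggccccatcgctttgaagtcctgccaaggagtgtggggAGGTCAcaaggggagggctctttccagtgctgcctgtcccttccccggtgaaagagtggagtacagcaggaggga
The table has 3 windows for Apoe, and the one at chr7:19698572-19698871 holds 2 TATA box cores. The most upstream, at chr7:19699139-19699438 on the minus strand, is the one shown here and holds none of the motifs, which says only that these letters are not in these bases.
Apoe promoter: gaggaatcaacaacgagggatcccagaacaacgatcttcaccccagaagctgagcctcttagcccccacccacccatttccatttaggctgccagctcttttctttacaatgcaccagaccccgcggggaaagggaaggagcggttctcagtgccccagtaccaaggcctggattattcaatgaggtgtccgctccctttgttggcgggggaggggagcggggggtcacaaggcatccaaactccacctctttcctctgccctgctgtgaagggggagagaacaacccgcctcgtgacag

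Each of the 8 libraries, 4 per subset, was sequenced in 2 lanes that were summed, and the sums held 53527928 to 57768202 counts on genes for the Tim-4+ subset and 55618306 to 69594245 for Tim-4-. A level below is in CPM (counts per 1000000, scaled between libraries by TMM factors) unless it is said to be per length. At this depth a count of 0 allows up to 0.0382 to 0.0630 CPM, counting error only. Timd4 itself was at 524 to 1743 CPM in Tim-4+ and 1.96 to 84.9 CPM in Tim-4- TAMs, highest in the Tim-4- library of pair 793. Among 7 macrophage markers 5 rose in Tim-4+ TAMs (summed 43210 to 55559 against 20719 to 33051 CPM). All 6 markers of resident peritoneal macrophages rose, and 5 of 6 of monocyte-derived ones fell. The resident markers include Timd4, whose rise was fixed in advance by the sort. Vsig4, Ccr2 and Cd226 were named by the study among its top genes from these same data. The counts for these 2 marker lists are therefore a description and not an independent check of the subsets. All 11 markers of ovarian tumor and mesothelial cells were lower in Tim-4+ TAMs (summed 116 to 417 against 470 to 2218 CPM). For lymphocytes 0 of 3 tested markers passed by edgeR (1 lower at an unadjusted p under 0.05, and 1 lower by DESeq2). For granulocytes and mast cells 1 of 3 fell (2 lower at an unadjusted p under 0.05, and 2 by DESeq2). Of the dendritic cell markers 1 of 5 rose and 1 fell. For fibroblasts and endothelium 1 of 7 fell (3 lower at an unadjusted p under 0.05, and 3 by DESeq2), with a median log2 fold change of -0.77. Fewer cells of a type and less RNA per cell cannot be told apart in bulk RNA. The labels do not say that each pair is 1 mouse, while the study's figure legend calls the sequenced subsets paired, in 4 groups. The fit took out differences between the pairs, so its p-values measure the spread that is left among these samples.

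The members spanned the whole range of expression. Per length, that is counts over exon bases, scaled to the same total in each library, Apoe stood second of all genes in each of the 8 libraries, at 34130 ± 16364 in Tim-4+ and 28164 ± 8989 in Tim-4- TAMs (mean ± SD, n = 4). Apoe alone took 1.23% to 4.20% of all counts of a library. Pltp followed at 651 and 988, then Apoc1 at 108 and 12.6, Lpl at 87.9 and 46.2, Apoc4 at 3.78 and 3.64, Apoc2 at 0.385 and 0.715 and Vldlr at 0.0849 and 0.0758 (means in Tim-4+ and Tim-4- TAMs). In this order Apoc1 and Lpl did not differ beyond their spread in Tim-4+ TAMs (108 ± 19.0 and 87.9 ± 40.0), while in Tim-4- TAMs Apoc1 was below Lpl in all 4 libraries (12.6 ± 2.85 and 46.2 ± 9.47). The place of Lpl depends on its annotated length, since counts over the longest transcript give 181 and 92.8 per length, above the 122 and 13.9 of Apoc1 in both subsets. The per-length level of Apoe was 316 times that of Apoc1 in Tim-4+ TAMs and 2238 times in Tim-4- TAMs. Vldlr and Apoc2, at the bottom, rest on at most 27 and 22 counts in a library. The place of Apoc2 does not show its RNA level, since 646 of its 813 exon bases are shared with Gm44805.

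**Figure D1:**
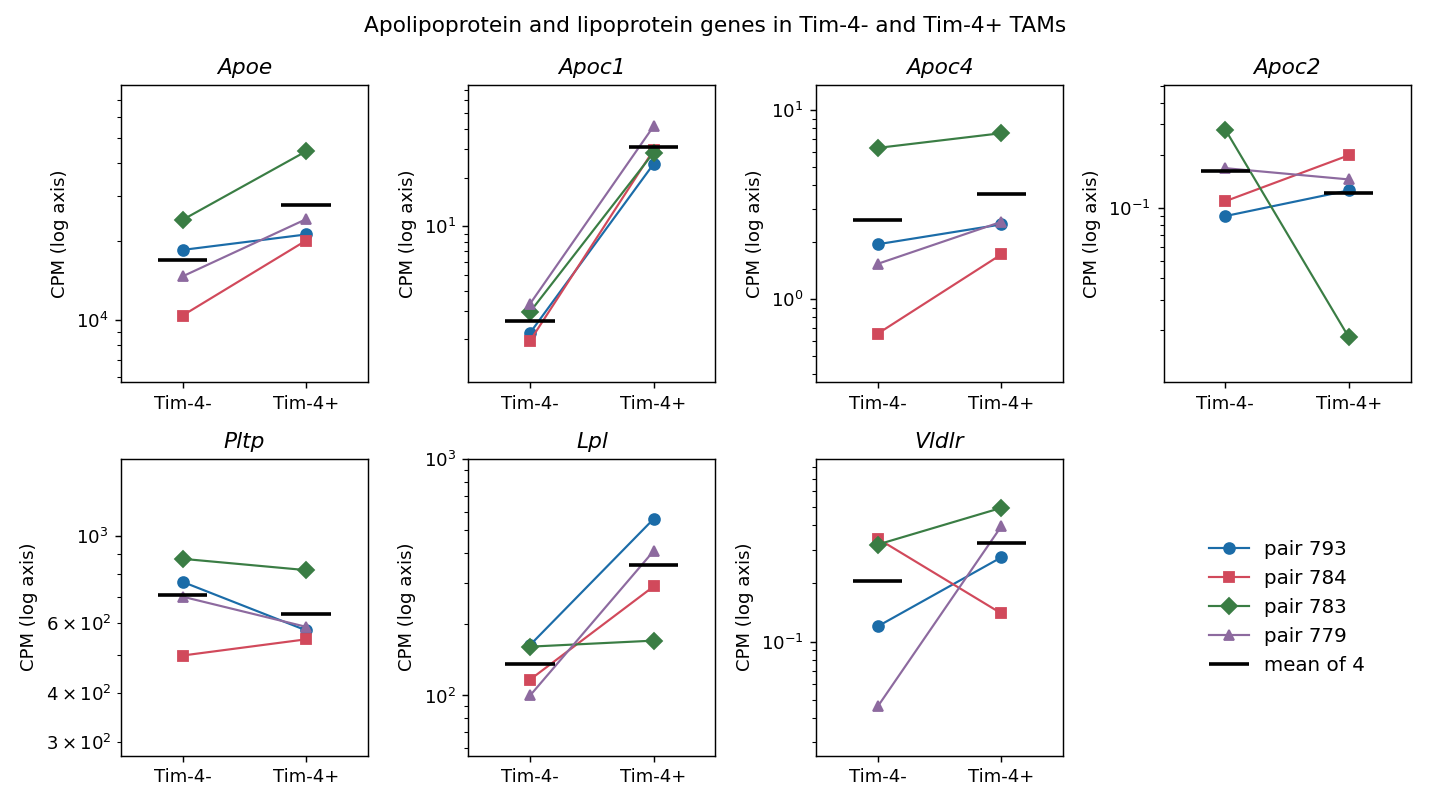
CPM of each of the 7 genes on a log axis, with the Tim-4- and Tim-4+ library of a pair joined by a line and a black bar at the mean of 4 libraries. The 4 Apoc1 lines climb steeply and side by side, the Apoe and Apoc4 lines all slope up with pair 783 on top, and in the Lpl panel pair 783 is nearly flat at 161 and 171 CPM.

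In the test across all 16861 genes with enough counts, 17.4% were called at an adjusted p under 0.05, 8.97% higher and 8.43% lower in Tim-4+ TAMs. Scaling by total counts instead of TMM changed these 1512 higher and 1421 lower calls to 789 and 4903, and shifted the median over all tested genes from 0.00 to -0.36 (log2). Of the 7 members 6 passed the filter on low counts, all but Apoc2. Apoc1 and Lpl rose in Tim-4+ TAMs, and Apoe, Apoc4, Pltp and Vldlr did not pass. The levels of the 2 subsets did not overlap for Apoc1 and Lpl, as for 12.8% of all tested genes. This was read with TMM scaling. For Lpl it did not hold per length, without TMM, where the Tim-4+ library of pair 783 (46.0) was below the Tim-4- libraries of pairs 793 and 783 (52.2 and 54.7).

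Apoc1 rose most. In Tim-4+ TAMs it was at 24.3, 29.7, 28.6 and 41.6 CPM in pairs 793, 784, 783 and 779, and in the Tim-4- TAMs of the same pairs at 2.202, 1.97, 2.97 and 3.33 CPM, from 1158 to 2000 counts against 144 to 233. Every Tim-4+ library was far above every Tim-4- library, and within a subset the highest was less than 2 times the lowest. The means were 31.0 ± 7.40 and 2.62 ± 0.639 CPM (SD, n = 4), an 11.9-fold difference (95% interval 9.19 to 15.3). On the log2 scale it was 3.57 (SE 0.16), with an adjusted p of 0.000290 by edgeR's quasi-likelihood test, and its unadjusted p of 2.11e-08 was the smallest of the 16861 genes. The log2 ratios within the pairs were 3.45, 3.89, 3.25 and 3.63. Under all 12 alternative settings Apoc1 was called, at log2 fold changes of 3.21 to 3.67 and adjusted p of 7.34e-87 to 0.00458. In the Tim-4- library of pair 793, with the most Timd4 of its subset (84.9 CPM), Apoc1 lay within the range of the other Tim-4- libraries. Hepatocytes are another known source of Apoc1 RNA. Their 6 markers summed to 0.063 to 0.256 CPM in Tim-4+ and 0 to 0.276 CPM in Tim-4- TAMs, with Fgb and Serpina1a at 0 throughout. The part of remaining Tim-4+ cells or of hepatocytes in the Apoc1 values was not tested.

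Apoe did not pass the test, although with TMM scaling each of the 4 pairs had more of it in its Tim-4+ library. Per length, without TMM, pair 793 went the other way, at 26223 in Tim-4+ and 28959 in Tim-4- TAMs. It was at 21254, 20134, 44357 and 24328 CPM in the Tim-4+ libraries of pairs 793, 784, 783 and 779, and at 18536, 10374, 24192 and 14669 CPM in the Tim-4- libraries. The subsets overlapped, and both libraries of pair 783 were the highest of their subset. The means were 27518 ± 11365 and 16943 ± 5871 CPM, and the fold change was 1.61 (95% interval 1.12 to 2.33), a log2 value of 0.69 (SE 0.23) with an adjusted p of 0.0731. Its log2 ratios in the pairs were 0.20, 0.96, 0.87 and 0.73, smallest in pair 793. Of all tested genes 22.4% were higher in each of the 4 pairs. Among the 12 alternatives DESeq2 alone called Apoe (log2 0.69, adjusted p 0.000543), and the others gave 0.33 to 0.86 with adjusted p of 0.0519 to 0.295. As a share of unscaled counts, Apoe was at 2.47% ± 1.16 in Tim-4+ and 1.91% ± 0.626 in Tim-4- TAMs.

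Apoc1 and Apoe are neighbors, so the ratio of their counts within each library compares their changes without any scaling between libraries. For every 100000 Apoe counts there were 114, 147, 64.4 and 171 Apoc1 counts in the Tim-4+ libraries of pairs 793, 784, 783 and 779, against 11.9, 19.0, 12.3 and 22.7 in the Tim-4- libraries. The lowest Tim-4+ library, that of pair 783, was still above the highest Tim-4- library. The log2 ratio was higher in Tim-4+ TAMs by 2.88 ± 0.36 (SD over 4 pairs), a 7.36-fold difference, in 4 of 4 pairs. Over all 70 relabellings of the libraries the exact two-sided permutation p was 0.0286, the smallest possible, or 0.0857 adjusted over the 3 ratios to Apoe. The exact two-sided sign-flip permutation over 4 pairs cannot go below 0.125, which was its value (0.375 adjusted).

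**Figure D2:**
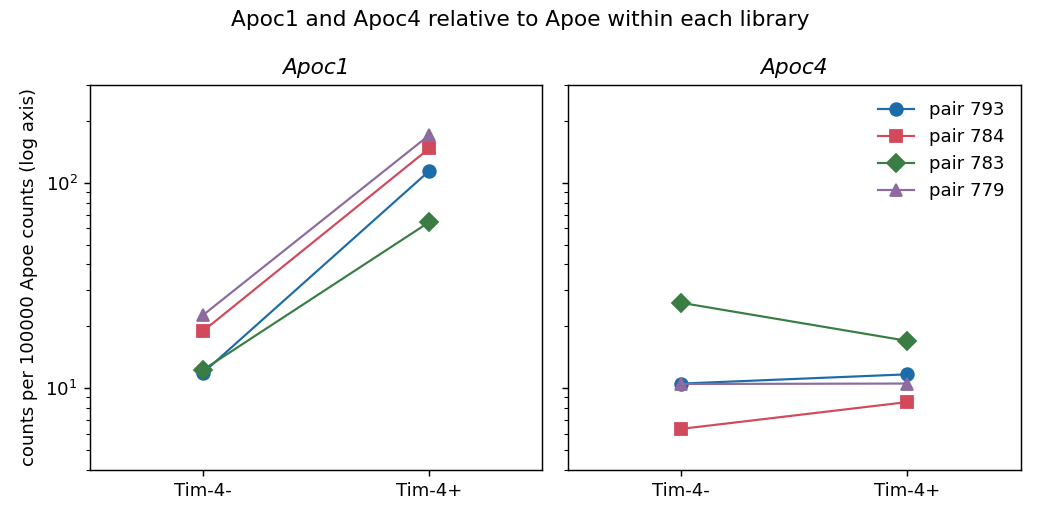
Counts of Apoc1 and Apoc4 per 100000 Apoe counts in each library (log axis), with the libraries of a pair joined by a line. The Apoc1 values go from 11.9 to 22.7 in Tim-4- up to 64.4 to 171 in Tim-4+ TAMs, while the Apoc4 values stay between 6.32 and 26.0 in both subsets.

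Apoc4 encodes a minor apolipoprotein C-IV, and its level over the 8 libraries was closer to that of Apoe than to that of Apoc1. It was at 2.48, 1.72, 7.53 and 2.56 CPM in the Tim-4+ libraries of pairs 793, 784, 783 and 779, and at 1.95, 0.656, 6.29 and 1.53 CPM in the Tim-4- libraries. Pair 783 was the highest in both subsets, by more than the subsets differed, and the subsets overlapped. The means were 3.57 ± 2.66 and 2.61 ± 2.52 CPM, and the log2 fold change of 0.66 (SE 0.27, 95% interval 0.04 to 1.29) had an adjusted p of 0.128, higher in 4 of 4 pairs. Its log2 ratios within the pairs were 0.34, 1.35, 0.26 and 0.72, in the same order of pairs as those of Apoc1. Per length, without TMM, pair 783 went the other way (8.39 in Tim-4+ and 8.83 in Tim-4- TAMs). Its 12 alternatives gave 0.31 to 0.81, none called. Relative to Apoe, the log2 ratio of Apoc4 differed between the subsets by -0.01 ± 0.44 (SD over 4 pairs), with an exact permutation p of 1 for both tests. Over the 8 libraries Pearson's r of log2 CPM was 0.92 between Apoe and Apoc4, 0.63 between Apoe and Apoc1 and 0.36 between Apoc1 and Apoc4, as a description of libraries that share pairs and depth. Of its exon bases 4.69% are also Gm44805's.

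Apoc2, the lipase activator, could not be read in these counts. The libraries of pairs 793, 784, 783 and 779 held 6, 10, 1 and 7 counts in Tim-4+ and 6, 8, 22 and 11 in Tim-4- TAMs. The subsets overlapped, 3 of the 8 libraries reached 10 counts, and the gene was not tested. Of its 813 exon bases 646 (79.5%) are shared with Gm44805 on the same strand, among them the whole coding sequence printed above, and Gm44805 was at 0 in all libraries. The 15 lanes that carry a summary set aside 4.29% to 4.96% of their assigned and ambiguous reads as ambiguous, the class for reads that fall on more than 1 gene, so a low Apoc2 count here does not show a low level of Apoc2 RNA. How many Apoc2 reads were set aside was not tested.

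Lpl rose in Tim-4+ TAMs, unevenly over the pairs. It was at 559, 290, 171 and 409 CPM in the Tim-4+ libraries of pairs 793, 784, 783 and 779 and at 164, 117, 161 and 100 CPM in the Tim-4- libraries. The lowest Tim-4+ library, of pair 783, was just above the highest Tim-4- library, and the Tim-4+ libraries were the more spread out. The means were 357 ± 166 and 135 ± 31.9 CPM, a 2.48-fold rise (95% interval 1.45 to 4.25), or 1.31 on the log2 scale (SE 0.32) with an adjusted p of 0.0387. Within the pairs the log2 ratios were 1.77, 1.31, 0.08 and 2.03. The call was made under 6 of 12 alternatives, at log2 values of 0.95 to 1.70 overall. Without pair 783 the log2 fold change was 1.70 (adjusted p 0.000111), and without pair 793, 784 or 779 it was 1.15, 1.31 and 1.06 and was not called (0.139, 0.137 and 0.138). It was not called either without the pair block (1.40, adjusted p 0.0649).

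Lpl is also a gene of adipocytes, so their markers are given beside it. The 6 adipocyte markers summed to between 69.99 and 343 CPM in Tim-4+ and 30.1 to 78.7 CPM in Tim-4- TAMs, nearly all of it from Fabp4, a fatty acid binding protein that macrophages also make. Fabp4 rose, with a log2 fold change of 2.07. Cidec and Lep were at 0 throughout, and Adipoq was at 0 to 0.0200 CPM. Plin1, a lipid droplet protein of adipocytes, was at 1.198 ± 0.737 and 0.211 ± 0.227 CPM, higher in 3 of 4 pairs (log2 2.74, adjusted p 0.137 by edgeR), and DESeq2 called both Plin1 and Fabp4 higher. The part of adipocytes in the Lpl values was not tested.

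Pltp was high in both subsets and was not called. It was at 576, 547, 820 and 588 CPM in the Tim-4+ libraries of pairs 793, 784, 783 and 779, and at 766, 497, 877 and 702 CPM in the Tim-4- libraries. The subsets overlapped, and pair 783 was highest in each. Its means were 633 ± 126 and 710 ± 160 CPM, with a log2 fold change of -0.16 (SE 0.14, 95% interval -0.48 to 0.17) and an adjusted p of 0.487, lower in 3 of 4 pairs with TMM scaling. Scaled by total counts it was called lower (-0.51, adjusted p 0.0196), a setting in which the median of all tested genes was at -0.36. Of the Pltp exon bases 19.3% lie opposite exons of Ctsa, the gene of the lysosomal protease cathepsin A, which rose in Tim-4+ TAMs (log2 0.94, adjusted p 0.0142). Whether the counting used strand is not given in the sources used here, and the part of this overlap in the Pltp counts was not tested.

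Vldlr was near the limit of detection. It had 13, 7, 27 and 19 counts in the Tim-4+ libraries of pairs 793, 784, 783 and 779 and 8, 25, 25 and 3 in the Tim-4- libraries, or 0.140 to 0.493 against 0.0460 to 0.342 CPM. The subsets overlapped and the pairs went both ways. Its log2 fold change of 0.80 (SE 0.75, adjusted p 0.501) had a 95% interval from -0.94 to 2.55. As fold changes this is 0.521 to 5.85, so a rise of several fold or a smaller fall could not be told from no change at this depth.

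**Figure D3:**
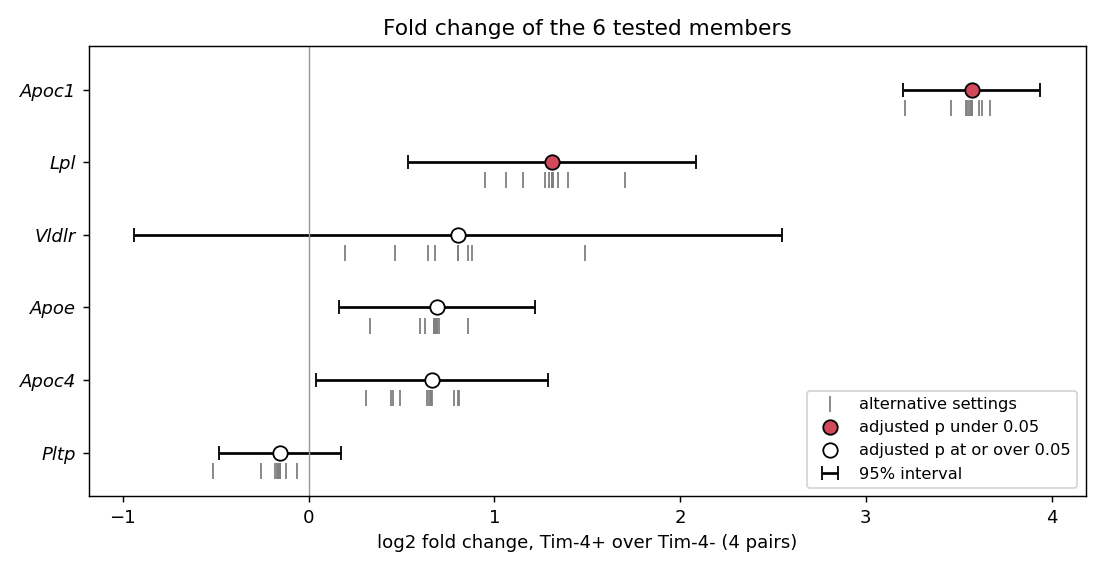
Log2 fold change of the 6 tested genes between Tim-4+ and Tim-4- TAMs (circles) with 95% intervals, and below each the values under the alternative settings (gray ticks). The Apoc1 interval, 3.20 to 3.94, lies apart from those of the other 5 genes, and all Apoc1 ticks lie between 3.21 and 3.67.

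The annotation has 19 other protein-coding genes within 200 kb of the cluster, of which 15 were tested, 2 rose and 1 fell (20.0%, against 17.4% of all tested genes), and the median log2 fold change was 0.04 against 0.00 for all tested genes. The closest tested genes on either side were Tomm40, a mitochondrial import channel, at -0.17 (adjusted p 0.423) and Clptm1 at 0.04 (adjusted p 0.818). Scaled by total counts both were called lower by edgeR, at -0.53 (adjusted p 0.0318) and -0.32 (0.0412), with the median of all tested genes at -0.36. Bcl3, an IkB family protein, rose by 0.64 (SE 0.13, adjusted p 0.0163), from 37.6 ± 24.7 to 55.6 ± 26.9 CPM. Exoc3l2, at the far end of the window, rose by 2.45 (SE 0.66, adjusted p 0.0430) at levels of only 0.957 to 2.73 against 0.0410 to 1.54 CPM. Nectin2, an adhesion molecule also found on epithelial cells, fell by 1.48 on the log2 scale (SE 0.36, adjusted p 0.0378), from 78.8 ± 38.8 to 28.4 ± 14.5 CPM, alongside the tumor and mesothelial markers given above, whose part in it was not tested. Bcl3 and Nectin2 were not called without pair 793 (adjusted p 0.0706 and 0.128), 784 (0.0574 and 0.148) or 779 (0.0634 and 0.135), and Exoc3l2 was not called without 784 (0.129) or 779 (0.151).

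**Figure D4:**
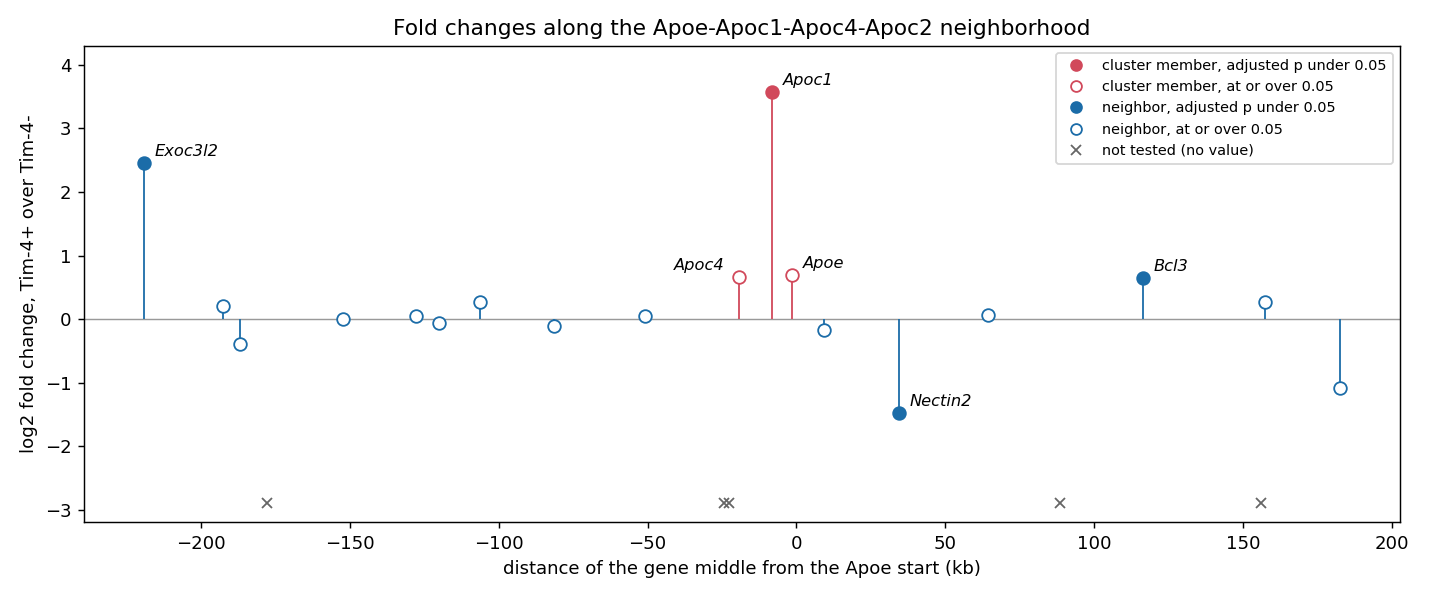
Log2 fold change of each gene of the cluster (red) and of its protein-coding neighbors (blue) against the distance of the gene's middle from the start of Apoe in kb, filled where the adjusted p was under 0.05. Apoc1 stands at 3.57 between Apoc4 and Apoe at 0.66 and 0.69, and most neighbors lie near 0. Crosses mark genes that were not tested and show no value.

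The wider pathway was read from 6 lists with 80 genes, of which 65 were tested. Of these 13 rose and 9 fell in Tim-4+ TAMs, 33.8% in all against 17.4% of all tested genes, and their median log2 fold change was 0.23. The lists were chosen with earlier results of these data known, so the larger share is a description and not a test. Scaled by total counts the 13 and 9 became 6 and 22. The counts also leaned on the pairs. Without pair 783 there were 12 higher and 9 lower, without 793 there were 6 and 3, and without 779 there were 4 and 1. Without pair 784 the edgeR test called 0 of 65, with 28 at an unadjusted p under 0.05, and no other tool was run on those 3 pairs. With all 4 pairs DESeq2 called 17 higher and 11 lower.

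Of the 14 other apolipoprotein genes 4 were expressed enough to test. Saa3, an acute-phase apolipoprotein that macrophages make, rose from 2383 ± 743 to 8088 ± 3483 CPM (log2 1.70, SE 0.30, adjusted p 0.0125), but was not called by DESeq2 (adjusted p 0.0767). Clu, which encodes the secreted chaperone clusterin (apolipoprotein J), fell from 1174 ± 776 to 257 ± 144 CPM, by 2.08 on the log2 scale (SE 0.35, adjusted p 0.0139). Apoa4 and Apoc3 were at 0 in every library, and the liver and gut genes Apoa1 and Apob were at no more than 0.256 and 0.0614 CPM.

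Among 12 lipases and lipase regulators 10 were tested, 2 fell and 0 rose by edgeR (2 were higher at an unadjusted p under 0.05, and 1 by DESeq2). Angptl4, a secreted inhibitor of lipoprotein lipase, fell by 1.67 on the log2 scale (SE 0.24, adjusted p 0.00840), from 9.62 ± 6.08 to 2.70 ± 0.959 CPM. From single lanes its log2 fold change was -2.06 in lane 2 and -1.33 in lane 1. Angptl8, another gene of this list, went the other way in 4 of 4 pairs (log2 1.41, SE 0.45) and was not called (adjusted p 0.0683 by edgeR). Hspg2, the gene of the matrix proteoglycan perlecan, fell by 2.09 (SE 0.35, adjusted p 0.0140). Gpihbp1, which anchors lipoprotein lipase to capillary endothelium, was at 0 in all libraries. Clu and Hspg2 are also made by mesothelial and other stromal cells, and fell with the summed tumor and mesothelial markers (116 to 417 CPM in Tim-4+, 470 to 2218 in Tim-4- TAMs). The part of those cells in these 2 genes, and in Angptl4, which also fell, was not tested.

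All 20 genes listed with the lipoprotein receptors and their regulators were tested, 6 rose and 3 fell. Mylip, a ubiquitin ligase and LXR target, rose from 30.5 ± 17.7 to 60.9 ± 24.2 CPM (log2 1.14, adjusted p 0.0104). Of the other listed genes, which are not all lipoprotein receptors, Apobr (1.05, adjusted p 0.00985), Scarb2 (0.87, 0.0216) and Cd36 (0.69, 0.0229) rose too. Lrp2 fell by 2.48 on the log2 scale (adjusted p 0.0224) at no more than 5.92 CPM, Lsr by 1.46 (0.0492) and Sorl1 by 0.66 (0.0404). Lrp2 was called under 5 of 11 alternatives and Lsr under 6 of 12. Lrp2 and Lsr are genes of epithelial cells, and the tumor and mesothelial markers moved the same way. The part of such cells in these 2 genes was not tested. Lrp1, a large receptor that takes up particles with apolipoprotein E, did not pass the test, at 2367 ± 705 and 2030 ± 976 CPM (log2 0.29, adjusted p 0.290).

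Of 13 genes of lipid transfer, assembly and export 12 were tested, 2 rose and 1 fell. Pla2g7, a lipoprotein-bound phospholipase, rose by 1.23 on the log2 scale (SE 0.32, adjusted p 0.0440) and Pon2, a lactonase, by 0.36 (SE 0.10, adjusted p 0.0479). Pla2g7 was higher in 3 pairs and lower in 1, and was called under 6 of 12 alternatives. Scaled by total counts Pon2 was at 0.00015 (adjusted p 0.999), and it was called under 4 of 12 alternatives. Soat1, which esterifies cholesterol, fell by 0.58 (SE 0.16, adjusted p 0.0476). The cholesterol exporters Abca1 and Abcg1 were not called, at 0.30 (adjusted p 0.272) and 0.54 (0.265), and Abca1 was at -0.06 when scaled by total counts.

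The nuclear receptors and the genes listed as LXR targets gave no single direction. Of 12 LXR, RXR and PPAR genes, all tested, 2 rose and 0 fell by edgeR (2 were lower at an unadjusted p under 0.05, and 1 by DESeq2). Rxrg, a partner of LXR, rose from 1.28 ± 0.751 to 9.90 ± 3.44 CPM (log2 3.15, SE 0.38, adjusted p 0.00650) and was called under 11 of 12 alternatives, all but the one without pair 784 (adjusted p 0.0574). Ppard rose by 0.54 (adjusted p 0.0337). Nr1h3, which encodes LXR alpha, was at 23.8 ± 14.5 and 25.3 ± 14.6 CPM (-0.12, adjusted p 0.534). Scaled by total counts Nr1h3 was called lower (-0.47, adjusted p 0.0371 by edgeR), with the median of all tested genes at -0.36. Of 13 genes listed as LXR targets 11 were tested, with a median of 0.05. Of these 3 rose (Smpdl3a 1.29, Mylip 1.14 and Lpcat3 0.41) and 2 fell (Scd1 by 0.62 and Arl4c by 0.52). Scaled by total counts Lpcat3 was at 0.05 (adjusted p 0.724 by edgeR), and it was called under 6 of 12 alternatives. Whether the listed genes respond to LXR in these mouse cells was not tested.

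**Figure D5:**
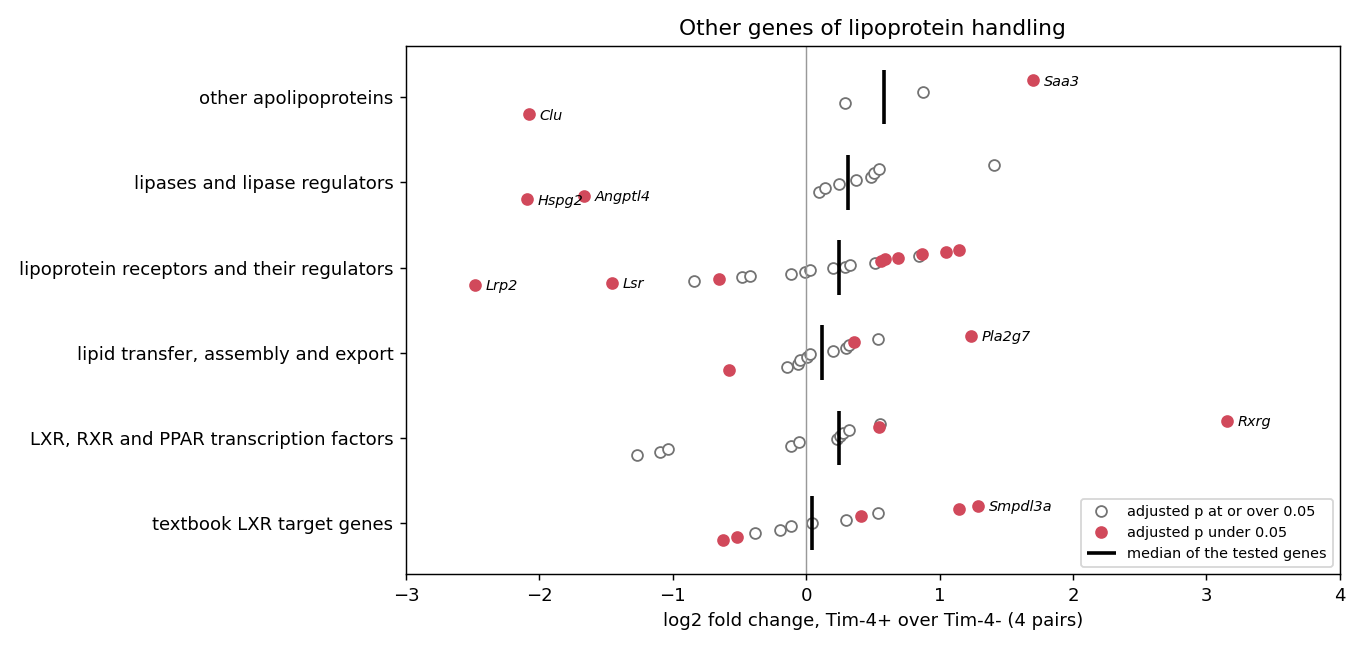
Log2 fold change of the 65 tested genes of 6 lists (rows, some genes in more than 1 list), filled where the adjusted p was under 0.05, with a black bar at each list's median. Calls lie on both sides of 0, from Lrp2 at -2.48 to Rxrg at 3.15, and the list medians lie between 0.05 and 0.58.

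For each tested member the 3 genes with the most similar pattern were taken by Pearson's r of log2 CPM over the 8 libraries, among the 8768 genes ranked. For Apoe they were Naa80 (0.98), Cd163 (0.98) and Pon2 (0.98), and for Apoc1 they were Ik (0.99), Gaa (0.98) and Bsg (0.98). Apoc4 was most like Abhd12, Npl and Tmem8 (each 0.98), Lpl most like Cd53 (0.98), Eml6 (0.97) and Gm13431 (0.97), and Pltp most like Scamp5 (0.98), Rftn1 (0.97) and Mfsd12 (0.96). Vldlr reached no more than 0.92, with Zfp292. No member was among the 3 genes nearest to another member. The libraries share pairs and depth, so these values describe the 8 libraries and carry no test.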

How the data were processed

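RNA of Tim-4+ and Tim-4- TAMs was depleted of ribosomal RNA and sequenced from stranded, paired-end libraries. What the authors deposited are counts of reads per gene, 1 set per lane, whole and not normalized. The submitters' processing notes name FastQC 0.11.3, TopHat2 2.0.13, Cufflinks, Cuffdiff 2.2.1 and GRCm38/mm10, while the methods name a human build. The counter is not given in the sources used here. One of 16 lanes lists symbols instead of identifiers and was joined by row order (96.8% of symbols matched). This lane, lane 1 of the Tim-4- library of pair 793, has its Timd4 row at the top, and the row was put back in its place before joining. It holds 2865 Timd4 counts, against 2804 in lane 2 of the same library. Names are from GENCODE M21, in which 98.6% of identifiers were found.

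The 2 lanes of a library were summed. The 16861 genes that reached 10 counts in 4 or more of the 8 libraries were tested with edgeR 4.0.16 (R 4.3.3), by its robust quasi-likelihood F test with TMM factors and the pair as a block. P-values were adjusted over these genes after Benjamini and Hochberg, and called means an adjusted p under 0.05. The SE is the log2 fold change over the square root of F. Same-numbered libraries deviated together from their group means (r of 0.471, 0.498, 0.408 and 0.277 for pairs 793, 784, 783 and 779), so the numbers were taken to pair them. Alternatives were other scaling, DESeq2 1.42.0, no pair block, other count filters, single lanes and each pair left out. Ratios to Apoe used counts plus 0.5.

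The members and gene lists were chosen with earlier results of these data known. Named beside the members are, of each list, at most the 4 called genes with the largest change per direction, the genes Abca1, Abcg1, Nr1h3, Lrp1 and Cd36 whatever their result (1 more gene of this rule is not reported here), neighbors within 200 kb, and for each member the 3 most similar genes among those averaging 10 CPM or more. Genes named as absent (Apoa1, Apoa4, Apoc3, Apob, Gpihbp1) and Angptl8, Ctsa, Fabp4 and Gm44805 were named after their values were seen. The fit was tested on simulated data.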

Additional observations from a re-analysis of the deposited data

Results flagged for a closer look

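In the Tim-4+ library of pair 783, Apoc4 was at 7.53 CPM, far from the other 3 Tim-4+ libraries (1.72 to 2.56 CPM), with a gap to the nearest of 0.856 of the whole range. The Tim-4- library of the same pair was also the highest of its subset, at 6.29 CPM. Pltp was at 820 CPM in the same Tim-4+ library, against 547 to 588 CPM in the others, with a gap of 0.848 of the range. Of 12 groups of 4 libraries looked at (6 tested genes in 2 subsets) these 2 were beyond Dixon's 95% limit for 4 values, and chance alone puts about 1 in 20 groups there.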

How the results depend on the processing

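No called member changed direction, and Apoc1 was called under all 12 alternatives. Among values that were not called, the ratio of Apoc4 to Apoe went from -0.01 to 0.19 without pair 783, and with total counts Abca1 went from 0.30 to -0.06 and Lrp1 from 0.29 to -0.06. Clptm1 went from 0.04 to -0.32 with total counts and was then called lower, as were Nr1h3 and Tomm40. Scaling by total counts gave 789 genes higher and 4903 lower (398 and 1936 at 2-fold or more, against 641 and 976), 6 and 22 of the pathway genes, Lpl at 0.95 and Pltp at -0.51. DESeq2 gave 2323 genes lower and called Apoe at 0.69. Without the pair block, with which the numbered pairs were fitted, there were 147 genes higher and 85 lower (127 and 80 at 2-fold), 1 and 0 pathway genes (15 at an unadjusted p under 0.05 by edgeR), and Lpl was not called at 1.40. With no filter on low counts Lpl was not called at 1.29. Leaving out each pair in turn gave 91 to 1608 genes higher and 67 to 1975 lower, fewest without pair 784, with 76 to 798 and 63 to 1533 at 2-fold, 0 to 12 and 0 to 9 pathway genes, and Lpl at 1.06 to 1.70. Per length, Lpl was at 181 and 92.8 over its longest transcript. Vldlr could not be fitted at 50 counts or in single lanes. The causes of these changes were not tested.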
